A study of Homo sapiens with 32 samples.

Results

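Genes with many merged m6A peaks were examined, peak by peak and along each transcript. The peaks were those of genes with 10 or more merged peaks in the count table that also start beyond the first bins of their gene, at 159 or later. They numbered 3335 of 26104 merged peaks (12.8%) and lay in 264 of 7978 genes (3.31%). Another 69 peaks of these genes start before that and were left out. The genes held a median of 11 merged peaks each, with 77 genes at exactly 10 and 33 peaks in AHNAK, the gene with the most. Only the start of a peak within its gene is listed, in base pairs, so a peak is named here by gene and start. Consecutive starts lay a median of 350 bp apart, the median first start of a gene was 601 and the median last start was 7698. For the peaks at the edge of the rule, those of genes with 10 merged peaks had a median log2 IP/input of -0.80, and those of genes with 9 had -1.04.

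N6-methyladenosine (m6A) is the most abundant internal modification of messenger RNA. A methyltransferase complex built around METTL3 and METTL14 writes it at short sequence motifs, demethylases can remove it, and reader proteins bind it and change the decay, splicing or translation of the transcript. In m6A-seq, fragmented RNA is pulled down with an antibody against m6A (IP) and sequenced beside the untreated fragments (input), so IP over input reports how strongly a stretch of a transcript was recovered by the antibody. In most transcripts the mark is concentrated in long internal exons and near the stop codon, and the exon junctions of long, multi-exon coding regions tend to carry little.

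H1 and MEL1, both established human embryonic stem cell lines, were profiled undifferentiated (S0) and at 3 later stages of in vitro differentiation. S3 stands for posterior foregut, S4 for the pancreatic progenitor stage and S6 for β-like cells that are still immature. The 8 groups were H1 S0, H1 S3, H1 S4, H1 S6, MEL1 S0, MEL1 S3, MEL1 S4 and MEL1 S6, each with 2 preparations, and each preparation gave an input and an IP library from mRNA purified out of total RNA (32 libraries). No group carried a gene edit or an added compound in the labels, which give the cell type as hESCs at every stage, and the cultures were not sorted in the labels. The study's legends call the preparations of a line independent biological samples, and the labels carry only a number, so p-values measure the spread between these preparations.

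Input libraries held 2652830 to 6879256 reads in merged peaks and IP libraries held 2378881 to 15674899, with both MEL1 S4 IP libraries at the shallow end (2483580 and 2378881). A peak of these genes had a median of 17 to 51 reads per input library and 16 to 74 per IP library, so single peaks were counted with little depth. Peaks without any IP read made up 0.9% to 3.66% in the H1 libraries of S0, S3 and S6, and 7.14% to 22.3% in both H1 S4 libraries and all MEL1 libraries. Markers of the stages were read from input counts per 1000000 reads (CPM). The undifferentiated list (SOX2, LIN28A, L1TD1, SALL4; 4 of 4 with a peak) summed to at least 2920 at S0 and at most 1740 later, and the foregut list (5 of 5) to at most 13.3 at S0 and at least 975 at S3. The β-like list (3 of 5, with SLC30A8 and ABCC8 having no merged peak) summed to 738 to 821 at S6, nearly all of it CHGA (721 to 810; GLIS3 at most 16.9 and ISL1 at most 3.63), a gene of neuroendocrine cells in general. The same list was at 233 to 243 in H1 S0 and 496 to 629 in H1 S4, and at 62.3 to 73.1 and 65.6 to 69.7 in MEL1 at those stages. The pancreatic progenitor list (PDX1, MNX1, SOX9, ONECUT1; 4 of 4) summed to close values at S3 and S4 within each line, at 99.7 to 111 and 101 to 102 in H1 and at 42.7 to 43 and 43.7 to 45.7 in MEL1, so S4 was not set apart from S3 by this sum. Its genes went in opposite directions as means of 4 preparations. PDX1 went from 30.7 at S3 to 18.8 at S4 and MNX1 from 15.8 to 10.1. SOX9 went from 17.05 to 28.9 and ONECUT1 from 10.6 to 15.2. At S6 the list summed to 36.4 to 40.1 in H1 and 161 to 164 in MEL1. The hepatic genes AFP, APOB and VTN (3 of 3) summed to 43300 to 46400 in MEL1 S4 and 56.4 to 76.8 in H1 S4, and to 14800 to 17500 in MEL1 S3 and 152 to 156 in H1 S3. Of the other cells that such cultures could hold, mesenchymal genes (2 of 3, COL3A1 without a peak) were at 600 to 647 in MEL1 S4 and 35.6 to 148 elsewhere, neural genes (2 of 3, PAX6 without a peak) at 37.8 to 2510, and intestinal genes (2 of 2) at 0.483 to 496. The neural sum was mostly NES, at 1075 to 2063 already at S0. The other neural gene, STMN2, was at most 1.96 at S0 and at 90.8 to 282 at S6, so the sum did not follow it. At S6 the hepatic genes were at 20.7 to 25.2 in H1 and 1660 to 1750 in MEL1, the neural genes at 2160 to 2170 and 566 to 608, and the foregut list at 181 to 190 and 701 to 722. At S0 the undifferentiated list was at 2920 to 3050 in H1 and 3940 to 4830 in MEL1, and the neural genes at 1080 and 1900 to 2060. The lines therefore differed in markers at every stage, and the part of this in the m6A differences below was not tested.

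Within these genes the antibody recovered most stretches less than it did the typical merged peak. The libraries were scaled by trimmed means (TMM), which put the median of all merged peaks at 0.19, 0.06, -0.42 and -0.09 in the order S0, S3, S4, S6. The median log2 IP/input of these genes' peaks was -0.71, -0.68, -0.29 and -0.38 in H1 preparations 1 and 2 and MEL1 preparations 1 and 2 at S0. At S3 the same 4 values were -0.65, -0.64, -0.92 and -0.83. At S4 they were -1.49, -1.17, -0.89 and -0.56, and at S6 -0.97, -0.89, -1.36 and -1.34. All 16 preparations were below 0, with H1 lower than MEL1 at S0 and S4 and MEL1 lower than H1 at S3 and S6. S0 averaged -0.52 ± 0.21, S3 -0.76 ± 0.14, S4 -1.03 ± 0.39 and S6 -1.14 ± 0.24 (SD, n = 4), so neighbouring stages overlapped. All other merged peaks had means of 0.29, 0.15, -0.33 and 0.08, so the difference of these genes' peaks from them was -0.80 ± 0.39, -0.91 ± 0.06, -0.70 ± 0.50 and -1.22 ± 0.08 on the log2 scale (SD, n = 4).

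**Figure D1:**
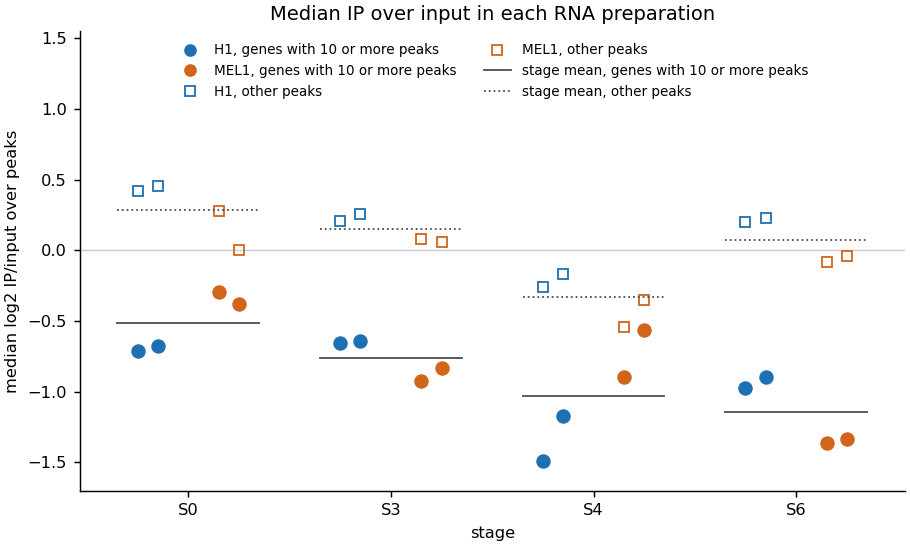
Median log2 IP/input in each of the 16 preparations, for the 3335 peaks of genes with 10 or more merged peaks and for all other merged peaks, by stage and line. Horizontal lines mark the mean of the 4 preparations of a stage, solid for these genes and dotted for the other peaks. The peaks of these genes lay below 0 in all 16 preparations, at means from -0.52 at S0 to -1.14 at S6.

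The level was lower in genes with 5 or more merged peaks than in those with fewer, without a steady order among the former. Over the mean of all preparations, the median log2 IP/input was 1.07 for genes with 1 merged peak, 0.43 for 2 to 4, -0.42 for 5 to 8, and -1.45 for 20 or more, with -0.73 for 11 to 14 and -0.98 for 15 to 19. Those values leave out peaks at the first starts, as above (2106 genes with 1 peak), and the following take in all peaks (2338 such genes). The highest peak of a gene had a median of 0.99 for genes with 1 merged peak, 1.35 for 2 to 4, 1.48 for 5 to 9, 1.66 for 10 to 14 and 1.63 for 15 or more. The lowest peak of a gene was at 0.99, -0.68, -2.25, -2.91 and -2.82 in the same classes. A maximum over more peaks tends to be higher and a minimum lower, so the spread between them is a description.

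IP against input was then tested within each stage (quasi-likelihood test of edgeR, p adjusted by Benjamini-Hochberg over all 26104 peaks, called at adjusted p below 0.1 and at least 2-fold; all 3335 peaks passed the minimum of 10 reads over all libraries). At S0, 624 of the 3335 peaks were enriched (18.7%; 30.7% of all merged peaks) and 1109 were depleted (33.3%; 24.9% of all). At S3, 637 were enriched (19.1%; 30.3% of all) and 1365 depleted (40.9%; 31% of all). At S4 the counts were 467 (14%; 20.8% of all) and 1315 (39.4%; 32.1% of all), and at S6 534 (16%; 28.4% of all) and 1542 (46.2%; 34.6% of all). Depleted here means below 0 after scaling, not absence of m6A. The study called the peaks on these same libraries, so the shares enriched and depleted are a description. At all 4 stages 283 peaks were enriched (8.49%; 14.9% of all) and 881 depleted (26.4%; 19.4% of all). Another 671 were called at no stage (20.1%; 18.7% of all), and 18 were enriched at 1 stage and depleted at another (0.54%; 0.881% of all).

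These calls rest on where 0 is placed. Median-of-ratios size factors moved the median of all merged peaks by -0.55, -0.59, -0.15 and -0.48 at the 4 stages and gave 327 enriched and 1399 depleted at S0, while library totals alone moved it by 0.38, 0.11, 0.21 and 0.18 and gave 860 and 880. The difference from the other merged peaks kept its sign under every scaling, at -0.87, -0.99, -0.70 and -1.21 with median-of-ratios factors and -0.84, -0.91, -0.58 and -1.16 with totals alone.

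Genes differed widely among themselves. The mean over a gene's peaks and all 16 preparations ranged from -6.14 in PABPC1, the cytoplasmic poly(A)-binding protein, to 2.24 in EPPK1, an epithelial plakin, with a median of -0.84, and 184 of 264 genes were below 0. Differences between genes made up 67.7% of the variance over the peaks' mean values and 46.5% to 66.8% in single preparations. At the low end with PABPC1 stood EIF3CL (-5.83), EIF4B (-5.38) and EIF4H (-5.30), which encode translation initiation factors, PSAP (-5.67), the precursor of lysosomal saposins, FLNA (-5.29) and ACTN4 (-5.05), which crosslink actin, and FASN (-5.28) and SCD (-5.18), enzymes of fatty acid synthesis and desaturation. Reads of PABPC1 and EIF3CL can be shared with near-identical copies, so those 2 values are uncertain. At the high end stood ANKRD33B (1.96), the zinc finger genes ZNF275 (1.79) and ZNF292 (1.53), ING5 (1.78), a reader of histone methylation, and ZFHX3 (1.45), a homeobox factor. These genes were picked from the ends of the order after their values were seen.

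The order of the genes went against their input level. The table gives no peak lengths, so input was expressed as CPM per merged peak. The genes were cut into 4 equal groups by input. In the group with the lowest input (1.3 to 8.12 CPM per peak, 66 genes) the median gene mean was 0.58 and 18 genes were below 0. In the next groups (8.27 to 15.7, and 15.8 to 31.2) it was -0.60 and -1.29, with 45 and 56 genes below 0. In the highest group (32.1 to 958) it was -3.38 and 65 of 66 genes were below 0. Across the 264 genes, Pearson's r between log2 input per peak and the gene mean was -0.77, a description in which both quantities share the input counts. With the input of one line set against the ratio of the other, which share no library, it was -0.72 and -0.75. The peaks themselves were called on libraries of both lines, and the part of that choice in this relation was not tested. The gene means of H1 and MEL1 followed each other with r of 0.96 over the same genes.

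**Figure D2:**
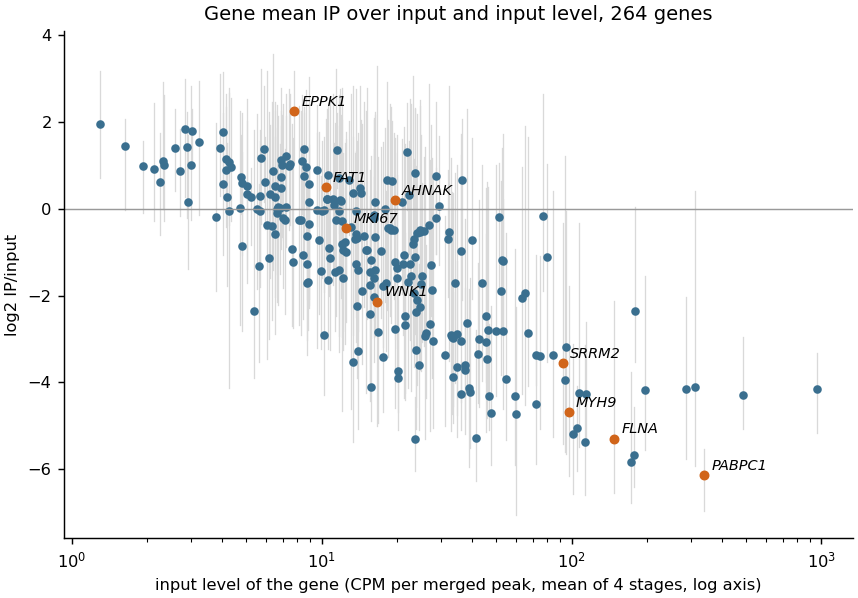
Mean log2 IP/input of each of the 264 genes (points, over its peaks and 16 preparations) against its input level in CPM per merged peak on a log axis, with grey lines from the lowest to the highest peak of the gene. The gene means fall from a median of 0.58 in the 66 genes of lowest input to -3.38 in the 66 of highest input.

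The 10 genes at the top of the order by merged peaks were AHNAK (ENSG00000124942), SRRM2 (ENSG00000167978), PLEC (ENSG00000178209), FAT1 (ENSG00000083857), MYH9 (ENSG00000100345), WNK1 (ENSG00000060237), CENPF (ENSG00000117724), MYH10 (ENSG00000133026), MKI67 (ENSG00000148773) and KMT2D (ENSG00000167548), with 24 to 33 peaks each. FLNA also had 24 merged peaks and was left out by the tie rule on Ensembl ID, and all 23 of its peaks counted here were depleted at every stage. MYH9, a non-muscle myosin heavy chain, averaged -4.68 ± 0.48 (SD over 16 preparations; lowest -5.63, highest -3.94), and its peaks ran from -6.16 at 5813 to -1.79 at 1113. All 26 of its peaks were depleted at S0 and all 26 at S6. Its paralogue MYH10 averaged -3.60 ± 0.51 with 19 of 23 peaks depleted at S0 and 21 at S6. SRRM2, a scaffold of nuclear speckles and spliceosomes, averaged -3.56 ± 0.40, with 25 of 29 peaks depleted at S0 and 28 at S6, and its highest peak, at 2751, reached -0.32. No peak of these 3 genes was enriched at S0 or S6.

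WNK1, a kinase that controls chloride cotransporters, combined both kinds of stretch. It averaged -2.14 ± 0.58 over 16 preparations, its lowest peak was -5.00 at 9001 and its highest was 3.29 at 4251, a range of 8.29, where the median range over the 264 genes was 4.02 and the narrowest, in ZNF275, was 1.33. The highest peak had 0 to 47 input reads a library, with 0 in both MEL1 S6 preparations, so its height is poorly known. At S6, 3 WNK1 peaks were enriched and 14 depleted. PLEC, the plakin that links intermediate filaments to junctions, averaged -1.06 ± 1.05, with -4.37 at 10742 and 1.89 at 16042. Its gene mean was -1.26 to 0.24 in the 8 H1 preparations and -2.98 to -0.18 in the 8 MEL1 preparations, the largest SD over preparations among the 10 genes.

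FAT1, a giant protocadherin, averaged 0.49 ± 0.63 and held 10 enriched and 1 depleted peak of 27 at S0, and 9 and 1 at S6. Its highest peak was 2.07 at 1978 and its lowest -1.15 at 4578. AHNAK, a giant scaffold encoded largely by 1 long exon, averaged 0.19 ± 0.43 and stayed between -1.09 at 6216 and 1.63 at 11566, with a near-equal second maximum of 1.62 at 18216. It had 5 enriched and 4 depleted peaks of 33 at S0 and 7 and 2 at S6. KMT2D, a histone H3 lysine methyltransferase, averaged -0.96 ± 0.66, from -2.82 at 17336 to 1.29 at 3886. The proliferation genes CENPF, a kinetochore protein, and MKI67, the Ki-67 antigen, averaged -0.50 ± 0.60 and -0.45 ± 0.44. Their highest peaks were 1.75 at 6401 and 1.60 at 1408.

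**Figure D3:**
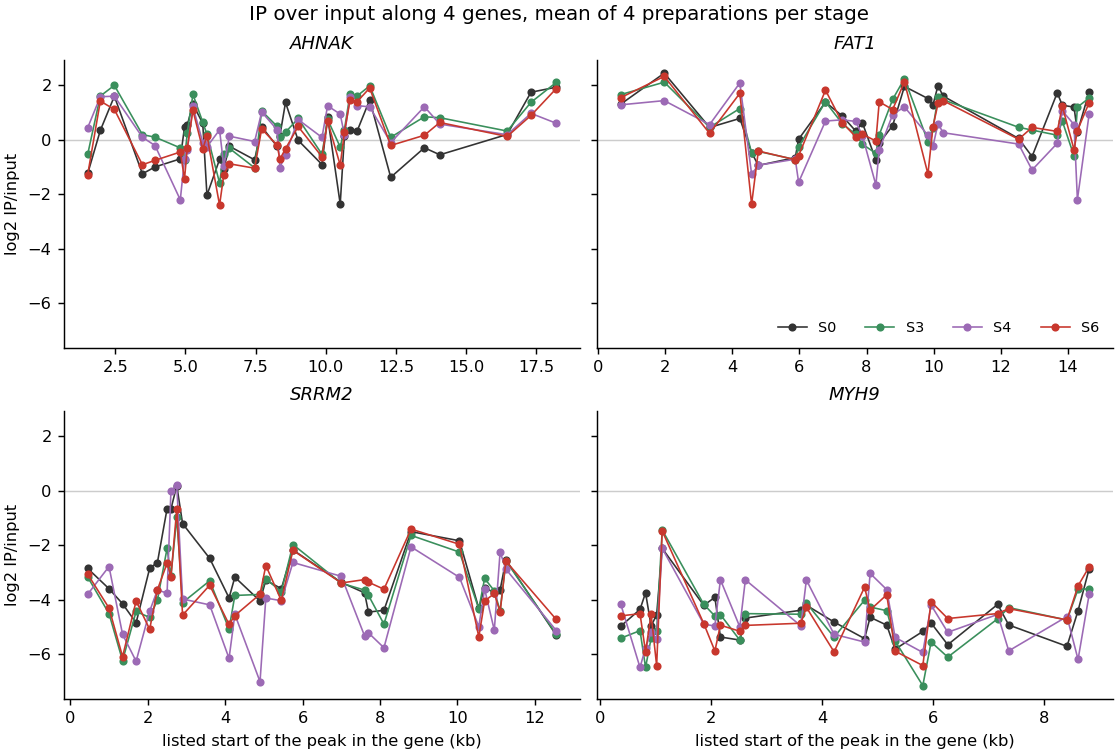
Log2 IP/input along AHNAK, FAT1, SRRM2 and MYH9, against the listed start of each peak in the gene in kb, as the mean of 4 preparations at each stage. MYH9 lies below 0 along its whole length and SRRM2 does so but for its peak at 2751 (-0.32 over all preparations), while FAT1 and AHNAK alternate around 0.

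Each peak was then compared with all other peaks of its gene over all preparations (diffSpliceDGE in edgeR, same thresholds). In 263 of 264 genes the peaks differed among themselves (80.6% of all genes with more than 1 peak). Of the 3335 peaks, 152 lay above their gene (4.07% of all tested peaks) and 1810 below it (38.1% of all). The gene's value in this test is weighted by reads. A peak above the gene was found in 119 genes and a peak below it in 258, with no share over all genes to set beside these counts.

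The 4 peaks furthest above their genes lay in WNK1 at 4251, NBPF19 at 17251, NCAPD2 at 201 and ACIN1 at 4411. The WNK1 peak was above 0 in all 16 preparations, from 0.85 to 6.94 (the top value from a library with 0 input reads), and exceeded its gene by 3.12 on the log2 scale (adjusted p = 2.26e-13, edgeR). The peak of ACIN1, a component of the exon junction complex also known as an inducer of apoptotic chromatin condensation, lay in a narrow band from 0.89 to 1.91 in the 16 preparations and was 2.67 above its gene (adjusted p = 5.48e-26). That of NCAPD2, a condensin subunit, was above 0 in 15 of 16 preparations (2.70 above its gene, adjusted p = 1.59e-19), the exception being -0.22 in MEL1 S4 preparation 2. NBPF19 belongs to a family of near-identical copies, so its value (0.70 to 2.60 over preparations, 2.92 above its gene, adjusted p = 4.1e-19) is uncertain.

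The 4 peaks whose fitted values lay furthest below their genes were in TENM3, a synaptic teneurin, at 3201 (adjusted p = 8.97e-26), NIPBL, the cohesin loader, at 6101 (adjusted p = 4.33e-22), SETD5, a SET-domain chromatin protein, at 9351 (adjusted p = 8.44e-18) and POLR1A, the largest subunit of RNA polymerase I, at 7620 (adjusted p = 2.82e-23). Many of their IP libraries held no read, so the fitted differences depend on the prior count and are not given as sizes. The TENM3 peak had 52 and 33 IP reads in H1 S4, 0 to 7 in the other H1 libraries and 0 in all 8 MEL1 libraries, and was called lower in MEL1 at S4 (adjusted p = 0.00818). In the other 3 peaks the IP reads lay mostly in MEL1 S0. NIPBL had 18 and 21 IP reads in MEL1 S0, 0 and 0 in H1 S0 and at most 1 in any other library. SETD5 had 27 and 26 in MEL1 S0, 1 and 2 in H1 S0 and at most 6 elsewhere. POLR1A had 32 and 39 in MEL1 S0, 3 and 3 in H1 S0 and at most 5 elsewhere. The line difference at S0 was called for NIPBL (adjusted p = 0.0135) and SETD5 (adjusted p = 0.0441) and not for POLR1A (adjusted p = 0.102; edgeR).

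Median levels differed little by position along the transcript. Strand was known from RefSeq (GRCh38.p14) for 206 of 264 genes (124 plus, 82 minus), and for minus-strand genes the direction in which starts are listed could not be settled, so plus-strand genes are given apart. Each gene was cut into 5 equal segments. From the first to the last segment of plus-strand genes, the median log2 IP/input of the peaks was -0.71, -0.60, -0.75, -0.59 and -0.56. With starts on minus-strand genes turned round, it was -0.81, -0.87, -0.75, -0.99 and -0.61 in those genes. Over both strands 21.1%, 15.7%, 17.6%, 19% and 24% of the peaks were enriched over the mean of the stages, against 32.1% of all merged peaks, so the outer segments held the most. With genes cut into 3 segments, the last exceeded the first by 0.10 ± 0.17, 0.14 ± 0.16, -0.00 ± 0.23 and -0.05 ± 0.10 in the order S0, S3, S4, S6 (median over genes, mean and SD over 4 preparations), each smaller than its SD. For plus-strand genes alone the values were 0.15 ± 0.17, 0.20 ± 0.13, 0.01 ± 0.23 and -0.03 ± 0.10. There the S3 value exceeded its SD, and all 4 preparations were above 0 at S0 (0.014 to 0.367) and at S3 (0.008 to 0.306).

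Single genes went either way. In 106 of 206 genes the last of 3 segments was the higher, by at least 1 on the log2 scale in 33, and in 26 genes the first was higher by as much. The highest peak of the gene lay in the last segment in 91 genes, the middle one in 62 and the first in 53, and the lowest peak in 65, 75 and 66. Neighbouring peaks were more alike the closer they lay, with a median absolute difference of 0.76 for starts up to 100 bp apart and 1.24 for starts more than 1000 bp apart. Peaks with close starts can share fragments.

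Changes between stages were tested as the difference of IP over input between stages (stage by library type, both lines together, edgeR). From S0 to S3, 1 peak of these genes rose and 2 fell (0.0306% and 0.0192% of all merged peaks). From S3 to S4, 48 rose and 118 fell (0.751% and 5.85% of all), in 35 and 90 genes. From S4 to S6, 115 rose and 133 fell (5.31% and 2.26% of all), in 90 and 86 genes. From S0 to S6, 2 rose and 54 fell (0.0766% and 1.18% of all), in 2 and 40 genes. S3 to S4 and S4 to S6 share all S4 libraries, S4 to S6 and S0 to S6 all S6 libraries, and S0 to S3 and S0 to S6 all S0 libraries. From S0 to S4, 52 rose and 273 fell (1.01% and 10.3% of all), and from S3 to S6 0 peaks were called in either direction by edgeR (0% of all), with 108 at an unadjusted p below 0.05.

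**Figure D4:**
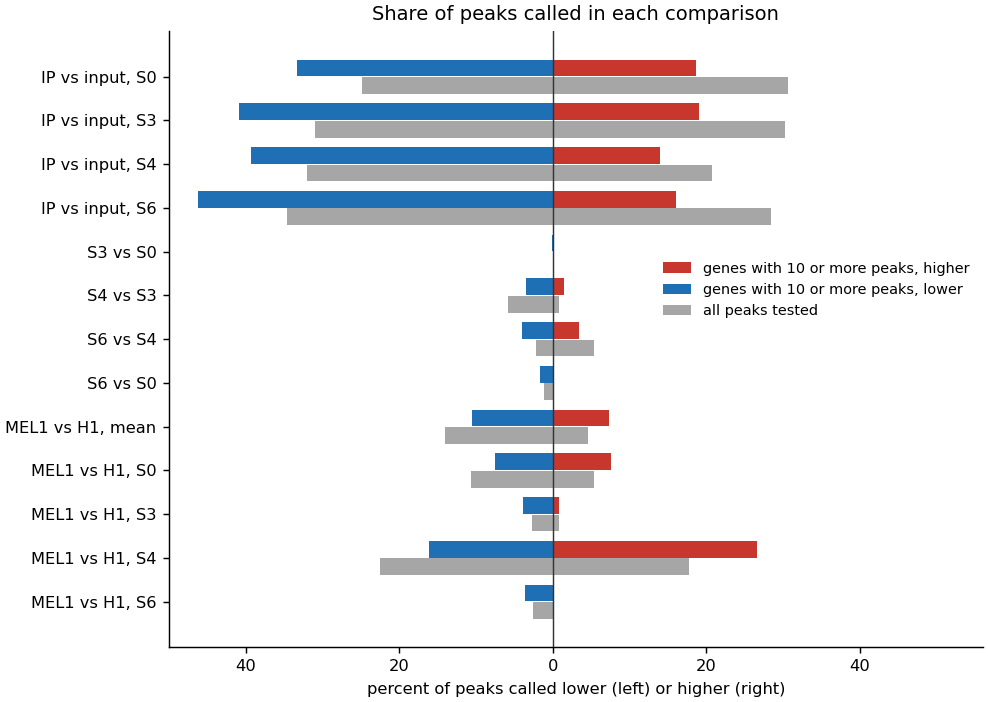
Share of peaks called higher or lower in each comparison, in percent, for the 3335 peaks of genes with many merged peaks and for all merged peaks. In these genes 118 peaks fell from S3 to S4 and 115 rose and 133 fell from S4 to S6, and these splits between rises and falls turn under other settings. The difference from all merged peaks was not tested.

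The counts with S4 in them differed between the lines and depended on the libraries and the scaling. From S3 to S4, H1 alone gave 466 rises and 1089 falls and MEL1 alone 310 and 150, and from S4 to S6 they gave 813 and 540, and 91 and 346, so in both comparisons the majority lay in opposite directions in the 2 lines. No shares over all merged peaks are given for these or the following settings, so the counts are not read as particular to these genes. With both lines together, the S3 to S4 split was 27 rises and 155 falls with each preparation as a block, 228 and 81 with DESeq2, 67 and 28 with median-of-ratios size factors, 38 and 53 with library totals alone, 56 and 43 with the IP and the input libraries scaled apart, and 37 and 8 without H1 S4 preparation 1. Without both MEL1 S4 preparations it was 168 and 532. The S4 to S6 split was 113 and 434 with DESeq2, 60 and 219 with median-of-ratios factors, 73 and 185 with libraries scaled apart, 120 and 68 with the block, and 388 and 228 without both MEL1 S4 preparations. The direction of the S4 counts was therefore not stable. The excess of falls from S0 to S6 held in all of these settings (29 and 246 with DESeq2, 2 and 16 with median-of-ratios factors, 3 and 116 with totals alone, 1 and 14 with libraries scaled apart, 1 and 11 with the block), while few peaks were called in either direction without one of the MEL1 S0 preparations (0 and 2 without preparation 1, 0 and 1 without preparation 2). H1 alone gave 84 rises and 311 falls and MEL1 alone 66 and 417.

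Between S0 and S3 the 3 called peaks lay in JPT2, MEX3A and LINC00261. In JPT2, a microtubule-associated protein that binds the calcium messenger NAADP, the peak at 3251 was at -0.98 and -1.04 in H1 S0 and -1.0 and -0.51 in MEL1 S0. At S3 it was at -3.04, -2.98, -4.19 and -3.10 in the same order, so the stages did not overlap. The level fell by 2.45 on the log2 scale (SE 0.40, adjusted p = 0.00786, edgeR), 5.64-fold from the pooled reads (3124 IP and 1623 input at S0, 557 and 1652 at S3). At S6 the peak stayed low, from -3.74 to -2.19. All 10 peaks of JPT2 were lower at S6 than at S0 as means, with some of the low peaks without an IP read in MEL1 S6, and its highest peak, at 1801, moved from 0.99 to 0.85.

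The peak of MEX3A, an RNA-binding protein of progenitor cells, at 5975 was at -0.73, -0.64, 0.13 and -0.57 at S0 and at -1.99, -2.12, -3.22 and -3.97 at S3. Every S3 value lay below every S0 value and the MEL1 values fell the further. The level fell by 2.32 (SE 0.43, adjusted p = 0.0227), 4.14-fold from pooled reads, and differed between the lines by -2.0 for MEL1 minus H1 (adjusted p = 0.0316). It lost its call with each preparation as a block (adjusted p = 0.12) and without MEL1 S0 preparation 1 or either MEL1 S3 preparation (adjusted p up to 0.254). The peak of LINC00261, an endodermal long noncoding RNA next to FOXA2, at 3653 rose by 2.95 (SE 0.58, adjusted p = 0.0484). It was read at S0 from only 19 input and 15 IP reads over 4 preparations, against 5812 and 38257 at S3, and its call was lost in 7 of 16 fits that left out 1 preparation.

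At S4 the named changes were nearly all changes between few reads. The folds of this and the following paragraphs are of reads pooled over both lines, which did not contribute alike, and so are not the change within either line. The KMT2D peak at 6686 had 124 IP and 144 input reads at S3, 0 and 89 at S4, and 91 and 44 at S6, summed over 4 preparations. Taking the floor of 3 reads over a group for the 0, its IP over input was at least 16.9-fold lower at S4 than at S3 (adjusted p = 0.0148) and at least 37.1-fold higher at S6 than at S4 (adjusted p = 0.00452, edgeR). The fall lost its call without H1 S4 preparation 1 (adjusted p = 0.111), and the rise kept it in all 16 such fits. In MAP1B, a neuronal microtubule protein, the peak at 2001 went the same way, with 43 IP and 25 input reads at S3, 0 and 68 at S4, and 177 and 190 at S6 (at least 25.7-fold lower, adjusted p = 0.0598, then at least 12.8-fold higher, adjusted p = 0.0754). Each MAP1B call was lost in 5 of 16 fits. In ONECUT2, a cut-homeodomain factor of the developing pancreas and liver, the peak at 10951 had 0 IP and 28 input reads at S4 and 290 and 88 at S6, at least 18.6-fold higher (adjusted p = 0.0326; adjusted p = 0.126 without H1 S4 preparation 2). For HELZ2, a helicase coactivator, no input read was counted at S3 for the peak at 3467 against 101 IP reads, and at S4 25 input and 105 IP reads were counted, at least 5.29-fold lower (adjusted p = 0.0578, lost in 6 of 16 fits).

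Of the 3 named peaks that rose from S3 to S4, 2 did so mainly in MEL1. For NDST1, which sulfates heparan sulfate chains, the peak at 8251 had 1 and 1 IP reads in H1 S3 and 2 and 0 in MEL1 S3. At S4 it had 0 and 0 in H1 and 21 and 63 in MEL1, so MEL1 alone was high at S4. LAMC1, the laminin γ1 chain, had at 2601 1 and 3 IP reads in H1 S3, 0 and 0 in MEL1 S3, 3 and 3 in H1 S4, and 16 and 14 in MEL1 S4. The change was called different between the lines for both (adjusted p = 0.0438 and 0.00363, edgeR), and no size is taken from the fit for that difference, since a group in it had no IP read. With both lines together and 4 IP reads at S3 in each peak, the fitted changes were 6.06 (SE 1.71, adjusted p = 0.044) and 4.70 (SE 1.23, adjusted p = 0.032), and neither was called without both MEL1 S4 preparations (adjusted p = 0.474 and 0.217). The NDST1 call was also lost in 4 of 16 fits that left out 1 preparation and the LAMC1 call in 1. In ACIN1 the peak at 8161 had 5 and 3 IP reads in H1 S3 and 0 and 0 in MEL1 S3. At S4 it had 17 and 5 in H1 and 0 and 23 in MEL1. The fitted rise of both lines together was 3.83 (SE 1.21, adjusted p = 0.0726, edgeR), with its call lost in 6 of 16 fits that left out 1 preparation.

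The peaks that fell furthest from S4 to S6 were also high in MEL1 S4. CDH1, the epithelial cadherin, had at 4601 57 IP reads at S4, all in MEL1, and 0 at S6, at least 48.5-fold lower (adjusted p = 0.025). NUP50, a nuclear pore component, had at 2151 16 and 8 IP reads in H1 S4 and 5 and 3 in H1 S6. Its fall was called (adjusted p = 0.0406), but MEL1 had 64 and 45 IP reads with 1 and 0 input reads at S4 and 0 and 0 IP reads with 0 and 1 input reads at S6, so no size is given. GOLGA8A, of a golgin family with near-identical copies, had at 5401 1 and 2 IP reads in H1 S4, 12 and 14 in MEL1 S4, and 0 at S6 (adjusted p = 0.025). None of these 3 falls was called without both MEL1 S4 preparations (adjusted p = 1, 0.262 and 0.238).

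From S0 to S6 the called falls named here had their IP reads mostly in MEL1 S0. In PARM1, a mucin-like membrane protein, the peak at 3601 had 68 IP reads at S0, all in MEL1, with 1 input read, and 0 IP and 114 input reads at S6 (adjusted p = 0.018; no fold is given for 1 input read). Its call was lost without MEL1 S0 preparation 2 (adjusted p = 0.149) and in H1 alone (adjusted p = 1). No symbol was matched for the gene ENSG00000241978. Its peak at 4551 had 22 and 21 IP reads in H1 S0, 280 and 390 in MEL1 S0, 2 and 1 in H1 S6 and 0 and 0 in MEL1 S6 (adjusted p = 0.087), with 15 to 82 input reads a library at these stages. The change differed between the lines (adjusted p = 0.0945; 0 IP reads in MEL1 S6), and it lost its call in 9 of 16 fits that left out 1 preparation. The GOLGA8A peak at 5401 had 1 and 5 IP reads in H1 S0, 7 and 28 in MEL1 S0 and 0 at S6 (adjusted p = 0.0675). Its input was 14 and 11 in H1 and 11 and 2 in MEL1 at S0, then 62 and 51, and 10 and 11, so most S0 IP reads were MEL1 and most input reads H1. It lost its call in 6 of 16 such fits, among them those without either MEL1 S0 preparation (adjusted p = 0.181 and 0.271). LINC00261 at 3653 rose here too, by 2.67 (SE 0.59, adjusted p = 0.0443), with its call lost in 4 such fits.

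Under TMM scaling, peaks that were low at S3 had lower values at S6 than at S0 as a group, and the highest peaks did not. To choose peaks without using S0 or S6, they were ordered by their mean at S3 and cut into 4 equal groups. S3 lay nearer to S6 than to S0 (3.24% and 7.68% of these peaks at an unadjusted p below 0.05, edgeR). The part of this choice in the differences below was not tested. In the lowest group (S3 value up to -3.01) the median went from -3.34 ± 0.42 at S0 to -4.69 ± 0.46 at S6 (SD, n = 4), a difference of -1.35, with 34 peaks called, all lower (edgeR; 12 were higher at an unadjusted p below 0.05). In the following groups the difference was -0.89 (16 peaks called lower) and -0.33 (1 higher and 3 lower). In the highest group (0.83 and above) it went from 1.48 ± 0.03 to 1.41 ± 0.12, a difference within the spread, with 1 peak called each way. Library totals alone moved the median of all merged peaks by 0.38 at S0 and 0.18 at S6, so how flat this group is depends on the scaling. In the lowest group the difference was -0.59 in H1 and -2.11 in MEL1. Counts of 0 in IP were more frequent in MEL1 S6 (17.6% to 19.3%) than in MEL1 S0 (7.14% to 12.4%), and their part in this was not tested. With the IP libraries thinned to the depth of the shallowest, 1 of the 3335 peaks was called higher and 5 lower.

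The same held within genes. The peak of each gene that was highest at S3 (264 peaks) had a median of 1.45 ± 0.11 at S0 and 1.59 ± 0.11 at S6, 48.1% of these peaks were lower at S6, and none was called by edgeR (19 at an unadjusted p below 0.05). Of the other 3071 peaks 70.6% were lower at S6, their median went from -0.68 to -1.40, and 2 were called higher and 54 lower. Over these peaks of a preparation the SD of log2 IP/input was 2.37 on average at S0 and 2.66 at S6.

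**Figure D5:**
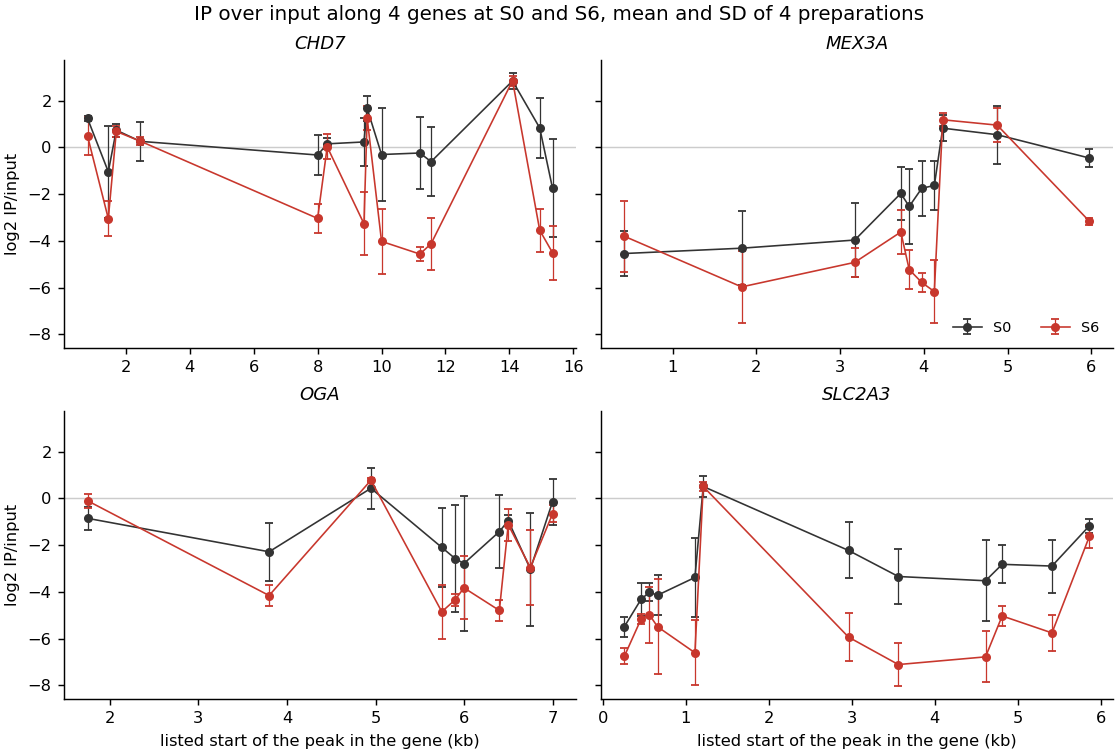
Log2 IP/input along CHD7, MEX3A, OGA and SLC2A3 at S0 and S6, against the listed start of each peak in the gene in kb. Points are means of 4 preparations and bars their SD. The highest peak of CHD7 is at 2.85 and 2.86 and that of SLC2A3 at 0.51 at both stages, while most low peaks lie lower at S6.

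Whether the change differed along a transcript was tested gene by gene. From S0 to S6 it did in 93 of 264 genes (12.4% of all genes tested), with 2 peaks above and 133 below their gene's change (0.0252% and 2.98% of all). From S3 to S4 it did in 76 genes (11.8% of all), with 21 peaks above and 17 below (0.421% and 0.572% of all). Without MEL1 S0 preparation 2 the S0 to S6 share was 15.2% of the 264 genes in place of 35.2%, and with each preparation as a block it was 20.5%. From S3 to S4 the block left 27 genes (10.2%), while H1 alone gave 97.7% and MEL1 alone 54.5%. Longer lists of peaks per gene give this test more chances to find a difference, and the part of this in the shares above was not tested.

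The genes with the smallest p between S0 and S6 were CHD7, a chromatin remodeller (gene adjusted p = 2.14e-08, edgeR), MEX3A (5.64e-07) and OGA, the enzyme that removes O-linked GlcNAc (1.05e-06). In CHD7 12 of 14 peaks were lower at S6, furthest at 14951, and 5 were called below the gene's change, while its highest peak, at 14101, was at 2.85 and 2.86. In MEX3A 4 of 10 were called, the peak at 4125 was furthest below its S0 value, and the highest peak, which starts only 100 bp further on at 4225, went from 0.83 to 1.19. In OGA 3 of 10 were called, the peak furthest below its S0 value was at 6398, and the highest peak, at 4948, went from 0.44 to 0.78. The peaks named at 14951, 4125 and 6398 had no or hardly any IP read in MEL1 S6, so no size is given for them. That of CHD7 at 14951 was not low at S0, at -0.08 and -0.44 in H1 and 1.95 and 1.91 in MEL1. In none of these 3 genes did the highest peak lie lower at S6 under TMM scaling. They were chosen by the smallest p for such a difference, and in the other named genes the highest peak went either way.

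Between S3 and S4 the smallest p were those of SLC2A3, a neuronal glucose transporter (5.09e-09), ACIN1 (1.05e-06) and KMT2D (1.48e-05). In SLC2A3 3 of 12 peaks and in ACIN1 1 of 21 rose relative to their gene, and in KMT2D 1 of 24, the peak at 6686, fell. These calls are of both lines together, and in SLC2A3 the lines went in opposite directions at most peaks, lower at S4 in H1 and higher in MEL1. Of its 3 called peaks, the one at 260 was higher at S4 in both lines (-6.24 to -4.12 in H1 and -7.53 to -4.98 in MEL1), while those at 4610 and 4810 were lower in H1 and higher in MEL1. From S0 to S6, 4 peaks of SLC2A3 and 4 of ACIN1 lay below their gene's change, while the highest peak of SLC2A3, at 1210, was at 0.51 at both stages.

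The lines differed in these peaks most at S4. Over the mean of the stages 242 peaks were higher in MEL1 and 352 lower (4.6% and 14.1% of all merged peaks). By stage, 252 and 253 were higher and lower at S0 (5.41% and 10.7% of all), 28 and 128 at S3 (0.801% and 2.66%), 888 and 541 at S4 (17.7% and 22.5%), and 3 and 122 at S6 (0.188% and 2.6%). The 888 peaks higher in MEL1 at S4 had medians of -3.79 in H1 and -0.02 in MEL1, and 808 of them were below 0 in H1. The 541 lower ones had medians of 0.09 in H1 and -3.00 in MEL1. This comparison holds the 2 shallow MEL1 S4 IP libraries. The split over the mean of the stages turned with the scaling, to 381 and 233 with median-of-ratios factors and 591 and 154 with totals alone.

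Profiles along the genes were also least alike at S4. With each gene's mean removed, the correlation over the 3335 peaks (a description, since peaks of a gene share reads and depth) was 0.73 between replicates at the median (0.36 to 0.87 over 8 pairs). Between the lines within S0 it was 0.40, within S3 0.66, within S4 0.25 and within S6 0.70. Pairs with a MEL1 S4 preparation, one of them the replicate pair, had a median of 0.34 (0.22 to 0.44). All other pairs had a median of 0.61 but ranged from 0.16 to 0.87, with the lowest value between H1 S4 and MEL1 S0. The replicate pair of MEL1 S0 was at 0.41 and that of MEL1 S4 at 0.36, so MEL1 S0 also had a low value. The change between stages differed between the lines (a test of the difference itself, either direction) for 469 peaks from S0 to S3 (12.2% of all merged peaks), 1090 from S3 to S4 (29.4%), 830 from S4 to S6 (21.1%) and 272 from S0 to S6 (6.52%).

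The 6 peaks named for the furthest fitted values between the lines, over the mean of the stages, had few or no reads in some groups, so those values depend on the prior count and are not given as sizes. ZNF462, a zinc finger protein of pluripotent cells, had at 3751 3 to 42 IP reads in the 8 H1 libraries and 0 to 3 in the 8 MEL1 libraries, over 8 to 20 and 3 to 21 input reads (lower in MEL1, adjusted p = 1.21e-04). SHROOM3, an actin-binding protein of apical constriction, had 3 to 110 and 0 to 12 IP reads at 6351 (lower in MEL1, adjusted p = 8.02e-05), and MPRIP, a myosin phosphatase partner, 6 to 271 and 0 to 7 at 4001 (lower in MEL1, adjusted p = 0.00156). In the other direction stood HCFC1, a chromatin cofactor, at 7155, with IP reads in H1 only at S0 (3 and 1) and 0 to 33 in MEL1 (adjusted p = 0.0012). ZKSCAN1, a zinc finger repressor, had at 4201 0 to 30 IP reads in H1 and 6 to 38 in MEL1, over 1 to 9 and 0 to 5 input reads (higher in MEL1, adjusted p = 0.0044). PXDN, a peroxidase that crosslinks collagen IV, had at 308 0 to 5 and 0 to 20 IP reads, over 10 to 63 and 4 to 25 input reads (higher in MEL1, adjusted p = 0.00153; all edgeR). Within single stages all 6 were called at S4, which holds the shallow MEL1 IP libraries. HCFC1, ZKSCAN1 and MPRIP were called at S4 alone (adjusted p = 0.00335, 0.0205 and 0.00857), ZNF462 and PXDN also at S0 (0.0376 and 0.0535), and SHROOM3 also at S6 (0.0534). The HCFC1 call was lost without MEL1 S0 preparation 1, MEL1 S6 preparation 1 or MEL1 S3 preparation 2 and the PXDN call without MEL1 S6 preparation 1, and those of the other 4 peaks held in all 16 fits that left out 1 preparation.

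The peaks were also grouped by the function of their gene, as a description with no test between the groups. The peaks of 7 zinc finger and homeobox genes (88 peaks, among them ZNF292 and SALL2) had a median log2 IP/input of 0.83, with 32 enriched and 7 depleted at S0 and 31 and 21 at S6. Of all merged peaks 30.7% were enriched and 24.9% depleted at S0, and 28.4% and 34.6% at S6, against 36.4% and 7.95%, then 35.2% and 23.9% of these 88. Those of 8 adhesion and matrix genes (118 peaks, FAT1, FREM2) had a median of 0.07, with 29 and 26 (24.6% and 22%), then 28 and 33. The 12 chromatin genes (162 peaks, KMT2D, BAZ2A) had -0.50, with 26 and 34 (16% and 21%), then 26 and 58. For comparison, the median was -0.94 over all 3335 peaks and -0.08 over all merged peaks. The lists were drawn up with results of these data known and are descriptions.

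Cytoskeletal genes (9 genes, 199 peaks, AHNAK, PLEC) had a median of -1.25, with 32 enriched and 88 depleted at S0 (16.1% and 44.2%) and 31 and 92 at S6. Of these 199 peaks 40 were lower in MEL1 and 10 higher, beside 14.1% and 4.6% of all merged peaks. The 9 genes of RNA binding and translational control (132 peaks, SRRM2, SPEN) had -2.15, with 25 and 65 (18.9% and 49.2%), then 15 and 80. The 4 receptor genes (54 peaks, PTPRF, IGF1R) had -2.06, with 4 and 26 (7.41% and 48.1%), then 5 and 37. The 4 genes of centrosome and mitosis (72 peaks, CENPF, MKI67) had -0.66, with 7 and 3 (9.72% and 4.17%), then 6 and 16. Only 2 ubiquitin-system genes (23 peaks, RANBP2, RNF213) and 1 gene of genome maintenance (11 peaks, MDC1) qualified, at 0.29 and -2.14.

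From S0 to S6, 2 of 162 chromatin peaks, 2 of 132 peaks of RNA-binding genes and 1 of 54 receptor peaks fell (1.18% of all merged peaks), 1 of 199 cytoskeletal peaks rose (0.0766% of all), and none of the 312 peaks of the other 5 groups was called by edgeR (31 at an unadjusted p below 0.05). From S3 to S4, 12 chromatin peaks were called, all lower (5 were higher at an unadjusted p below 0.05), and 8 peaks of RNA-binding genes rose and 1 fell. These are 12 of 162 chromatin peaks, where 5.85% of all merged peaks fell, and 8 of 132 peaks of RNA-binding genes, where 0.751% of all rose. From S4 to S6, 14 chromatin peaks rose and 3 fell (5.31% and 2.26% of all). The last 2 sets of counts share the S4 libraries and move with the settings given above for S4.

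The transcripts themselves changed in abundance over the same stages. The input level of a gene, summed over its merged peaks, rose from S0 to S6 in 55 of the 264 genes (17.5% of all genes) and fell in 22 (13.8% of all). From S0 to S3, 54 rose and 20 fell (15% and 13.8% of all). Between S3 and S4 only 2 were called, both lower (0.351% of all genes lower and 1.49% higher; 47 of the 264 at an unadjusted p below 0.05, and 2 higher and 2 lower with DESeq2), and between S4 and S6, 3 rose and 6 fell (2.85% and 2.33% of all). AHNAK rose from 48.9 ± 9.55 CPM at S0 to 1058 ± 222 at S6 (SD, n = 4; log2 change 4.28, SE 0.52, adjusted p = 1.19e-05, edgeR), while its gene mean of log2 IP/input went from -0.56 and -0.70 at S0 to 0.06 and 0.17 at S6 in H1 and from 0.57 and 0.57 to -0.11 and -0.15 in MEL1, in opposite directions. One of its 33 peaks, at 10516, was called higher in IP over input at S6 (adjusted p = 0.0725). PLEC rose by 1.19 (adjusted p = 0.0394), CENPF fell by 1.75 (adjusted p = 0.00502) and MYH10 fell by 1.19 (adjusted p = 0.00236). The peaks of the 264 genes together took 8.13% ± 0.44 of the input reads at S0 and 13.2% at S6, and 9.25% ± 0.99 and 10.3% of the IP reads (n = 4).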

How the data were processed

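Per the study's methods, the authors split genes (Ensembl 94) into bins of 50 bp, counted reads in them, and used MeRIPtools for calling and merging peaks, and the deposited table gives raw counts for each merged peak. Members are peaks of genes with at least 10 merged peaks that start above 151. The aligner and genome build are not given in the sources used here, replicates were not pooled, and merging sets how many peaks a gene has. The counts were fitted with edgeR 4.0.16 (limma 3.58.1, R 4.3.3): quasi-likelihood tests with TMM scaling over all 32 libraries, stage by library type plus cell line, a minimum of 10 reads in total (all 26104 peaks passed), adjusted p below 0.1 and at least 2-fold. Log2 IP/input per preparation is of TMM-scaled CPM with a prior count of 1. SE is the log2 change over the square root of F. Peaks against their gene were tested with diffSpliceDGE. DESeq2 1.42.0 and other scalings, filters, models, member rules and libraries left out were alternatives. Simulated data had input means pooled over all libraries, 1 IP/input ratio per gene and only the trend of the spread with read level. In them 100 peaks per fold were changed, drawn from members above a minimum of input reads. Of these, 11% of 4-fold and 76% of 16-fold changes from S0 to S6 were recovered, and 52% and 100% for the lines, with 26104 peaks fitted. These shares need not hold in the real data. Named peaks are the 3 largest called rises and falls in each stage comparison with one sign in all 4 same-numbered preparations, the 4 furthest above and below their gene, and the 3 largest line differences each way, 1 per gene. Named genes are the 10 with the most peaks, the 3 with the smallest p per change along the transcript, JPT2, and the 2 with the most peaks of each list. Members and lists were chosen with earlier results of these data known. Symbols were matched for 259 of 264 genes. IP and input of a preparation share RNA by design, and their deviations from group means correlated at -0.15 to 0.05. Figures used matplotlib 3.10.9 (Python 3.11.15). A withheld item is not reported here.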

Additional observations from a re-analysis of the deposited data

Results flagged for a closer look

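In groups of 4 preparations, 1 preparation stood far from the other 3 in 8 of 110 groups examined, and chance gives about 1 in 20. The share of input reads in these genes was 7.48% in MEL1 S0 preparation 1 and 8.31% to 8.4% in the other S0 preparations. The JPT2 peak at 3251 was at -4.19 in MEL1 S3 preparation 1 (others -3.10 to -2.98) and at -0.51 in MEL1 S0 preparation 2 (others -1.04 to -0.98). The MAP1B peak at 2001 was at -2.12 in MEL1 S4 preparation 2 (others -5.64 to -5.26), where no IP read was counted, as in the other 3. The TENM3 peak at 3201 was at -4.12 in H1 S3 preparation 2 (others -5.12 to -4.97), and that of POLR1A at 7620 at -2.96 in H1 S4 preparation 2 (4 IP reads; others -5.56 to -5.48, with 0). The MPRIP peak at 4001, where the lines differed, was at -6.19 in MEL1 S0 preparation 2 (others -2.51 to -1.89) and -6.58 in MEL1 S6 preparation 2 (others -2.16 to -1.91), and none of these 4 MEL1 libraries had an IP read there.

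The change between stages differed between the lines, by an edgeR test of the difference itself, for the MEX3A peak at 5975 (MEL1 minus H1 -2.0 from S0 to S3), the NDST1 peak at 8251 (fitted 8.08 from S3 to S4), the LAMC1 peak at 2601 (fitted 7.44 from S3 to S4) and the peak of ENSG00000241978 at 4551 (fitted -4.97 from S0 to S6). The last 3 fitted values depend on the prior count and are neither sizes nor bounds, since 1 group in each had no IP read (H1 S4, MEL1 S3 and MEL1 S6 in that order). In all, 469 peaks differed this way from S0 to S3, 1090 from S3 to S4, 830 from S4 to S6 and 272 from S0 to S6.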

How the results depend on the processing

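The share of these peaks called was 0.09% from S0 to S3, 4.98% from S3 to S4, 7.44% from S4 to S6 and 1.68% from S0 to S6. With DESeq2 these shares were 1.08%, 9.27%, 16.4% and 8.25%, in H1 alone 5.64%, 46.6%, 40.6% and 11.8%, in MEL1 alone 11.6%, 13.8%, 13.1% and 14.5%, and without both MEL1 S4 preparations, which was tried only once the data had been seen, 0.3%, 21%, 18.5% and 9.27%. From S3 to S4 and S0 to S6 they were 2.85% and 0.54% with median-of-ratios size factors, 2.73% and 3.57% with library totals alone, 2.97% and 0.45% with input and IP scaled apart, and 2.61% and 0.18% with thinned IP libraries. In genes with 15 or more merged peaks they were 0% from S0 to S3 and 0.735% from S0 to S6. Leaving out 1 preparation gave 0.03% to 0.12%, 1.35% (without H1 S4 preparation 1) to 8.43%, 3.06% (without H1 S6 preparation 1) to 9.9%, and 0.03% (without MEL1 S0 preparation 2) to 3.24%.

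With the replicate block by preparation, the shares were 0.21% from S0 to S3 and 0.36% from S0 to S6, and the genes whose change differed along the transcript were 20.5% in place of 35.2% from S0 to S6 and 10.2% in place of 28.8% from S3 to S4. The block moved the other shares of calls by less than 1.5 times. Preparations of one number at different stages share only a number, and their deviations correlated at -0.07 to 0.21. The share of such genes was 59.8% from S0 to S6 in MEL1 alone, and from S3 to S4 97.7% in H1 alone, 54.5% in MEL1 alone and 77.3% without both MEL1 S4 preparations. Leaving out 1 preparation gave 15.2% to 40.5% and 18.9% to 42.4%.

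The median log2 IP/input was -1.11 at S0, -1.38 at S3 and -1.63 at S6 with median-of-ratios factors, -0.16 at S0 with totals alone, -0.60 at S3, -0.54 at S4 and -0.86 at S6 with input and IP scaled apart, and -0.80, -1.13 and -1.52 at S0, S3 and S6 over peaks with a mean of at least 10 input reads. It was -0.91 and -1.11 at S0 and S3 with thinned IP libraries, -0.80 and -1.0 in genes with 15 or more peaks, and -0.58 in H1 and -0.93 in MEL1 alone at S3. Leaving out 1 preparation gave -1.18 to -0.48 (without H1 S4 preparation 1) at S4. The difference of the last from the first segment at S6 was 0.06 with starts taken as listed. Genes whose input changed made up 1.52% from S3 to S4 (0.758% in the main analysis, 0.758% to 1.14% without 1 preparation) and 5.3% from S4 to S6 (3.41%) with DESeq2. The NDST1 rise at 8251 turned to -1.57 in H1 alone and -1.86 without both MEL1 S4 preparations. For named peaks, 783 recomputed values kept direction and call, 107 kept direction and lost the call, and 2 turned. The causes were not tested. Few reads per peak limit what can be read from single peaks.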
